A study of Rattus norvegicus with 24 samples.

Results

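The lungs of rats that carried both insults of the study, massive brain damage (BD) and ventilation with a high tidal volume and low positive end-expiratory pressure (HVT/LPEEP), were compared with the lungs of rats that carried neither. The second group had no brain damage (NBD) and was ventilated with a low tidal volume and open lung PEEP (LVT/OLPEEP). The comparison took 12 of the 24 arrays of the series, 6 BD HVT/LPEEP and 6 NBD LVT/OLPEEP, each from the right lung of 1 rat, and used all 19239 features of the array. Membership came from the sample labels alone and not from any measured value. All rats were adult male Wistar rats under ketamine and xylazine, and anaesthesia, tracheotomy and the ventilator itself were shared by both groups. Ventilation was planned to last 6 h. BD was made by inflating a balloon catheter in the epidural space, and no hole was made in the skull of NBD rats, so the effects of the surgery and of the damage cannot be told apart. HVT/LPEEP meant 12 mL/kg with low PEEP. LVT/OLPEEP meant 6 mL/kg with the PEEP at which elastance was lowest after a recruitment maneuver. The respiratory rate was lowered with HVT/LPEEP to hold carbon dioxide constant, so it differed between the groups too. Because both insults change together between these groups, their shares in a difference cannot be told apart from the 12 arrays alone. The remaining rats, 6 BD LVT/OLPEEP and 6 NBD HVT/LPEEP, carried 1 insult each and are used below for the spread of the fit and to set values side by side. Among the BD HVT/LPEEP arrays, 2 came from rats that did not survive the experiment, and the labels do not say which. How long these 2 rats were ventilated is not given, so the time of ventilation may differ between the groups.

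Brain damage is known to release catecholamines and to disturb the hormones of the pituitary and the adrenal gland, and it primes distant organs for inflammation. Overstretched lung cells release cytokines and chemokines through the transcription factor NF-kappaB, and they transcribe immediate early genes within minutes of a mechanical stimulus. Glucocorticoids act in the opposite direction on much of this program and induce a well known set of target genes in the lung. The thin alveolar type I cell covers the gas exchange surface, and the type II cell makes surfactant and helps to clear fluid from the airspace.

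The labelled tissue was checked against markers of lung epithelium, which were high in every rat. Sftpc, the surfactant protein C gene of type II cells, lay between 14.24 and 14.33 (log2) in BD HVT/LPEEP lungs and between 14.27 and 14.41 in NBD LVT/OLPEEP lungs, close to the highest value of any feature (14.53). Scgb1a1, the defining gene of airway club cells, lay between 13.67 and 14.04 in BD HVT/LPEEP lungs and between 13.97 and 14.09 in NBD LVT/OLPEEP lungs. The deposited log2 values were already on a common scale, with the same sorted values on all 24 arrays. No array of either group stood apart, with mean correlations to the other arrays of its group between 0.975 and 0.982 in BD HVT/LPEEP and between 0.981 and 0.988 in NBD LVT/OLPEEP. The 2 arrays with the lowest correlations, NBD HVT/LPEEP 12 (0.951) and BD LVT/OLPEEP 16 (0.955), lay outside the comparison and entered it only through the spread that the fit shares over the 4 groups.

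BD HVT/LPEEP lungs differed widely from NBD LVT/OLPEEP lungs. At an adjusted p under 0.05 by limma, a linear model with moderated variances, 1738 features were higher and 1925 were lower in BD HVT/LPEEP, together 3663 of 19239 or 19.0% (9.03% higher and 10.0% lower). Most of these differences were small, with a median absolute log2 difference of 0.40 and a median SE of 0.10. Of the called features, 839 (4.36% of all) changed at least 1.5-fold, 444 up and 395 down. Large changes were mostly rises, with 117 features at least 2-fold higher and 57 at least 2-fold lower. At least 4-fold, 8 features were higher and 2 were lower. With Holm's correction, which the methods of the study name, 264 features passed (1.37%), 106 higher and 158 lower. For 1954 features (10.2%) no rat of one group overlapped with any rat of the other, and 1707 of these were among the called. The median log2 difference over all features was -0.002. The count of 3663 was lowest without NBD LVT/OLPEEP 27 (2747) and highest without NBD HVT/LPEEP 12 (4499), and it was 4612 without NBD HVT/LPEEP 12 and BD LVT/OLPEEP 16 together. It ranged from 2350 to 3490 when any 2 of the 6 BD HVT/LPEEP rats were left out, which includes the pair that did not survive. Among the 212 genes that a rule picked for naming, 72 lost their call without at least 1 of these pairs. Called features without a gene symbol numbered 374 and are not described further. Counts of list members below are to be read against the 9.03% of all features called higher and the 10.0% called lower. All adjusted p-values below are those of this limma fit over all features, and all differences are BD HVT/LPEEP minus NBD LVT/OLPEEP on the log2 scale unless another pair is named. Where 3 values of a gene are given for a group, they are the lowest, the median and the highest of its 6 rats.

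**Figure D1:**
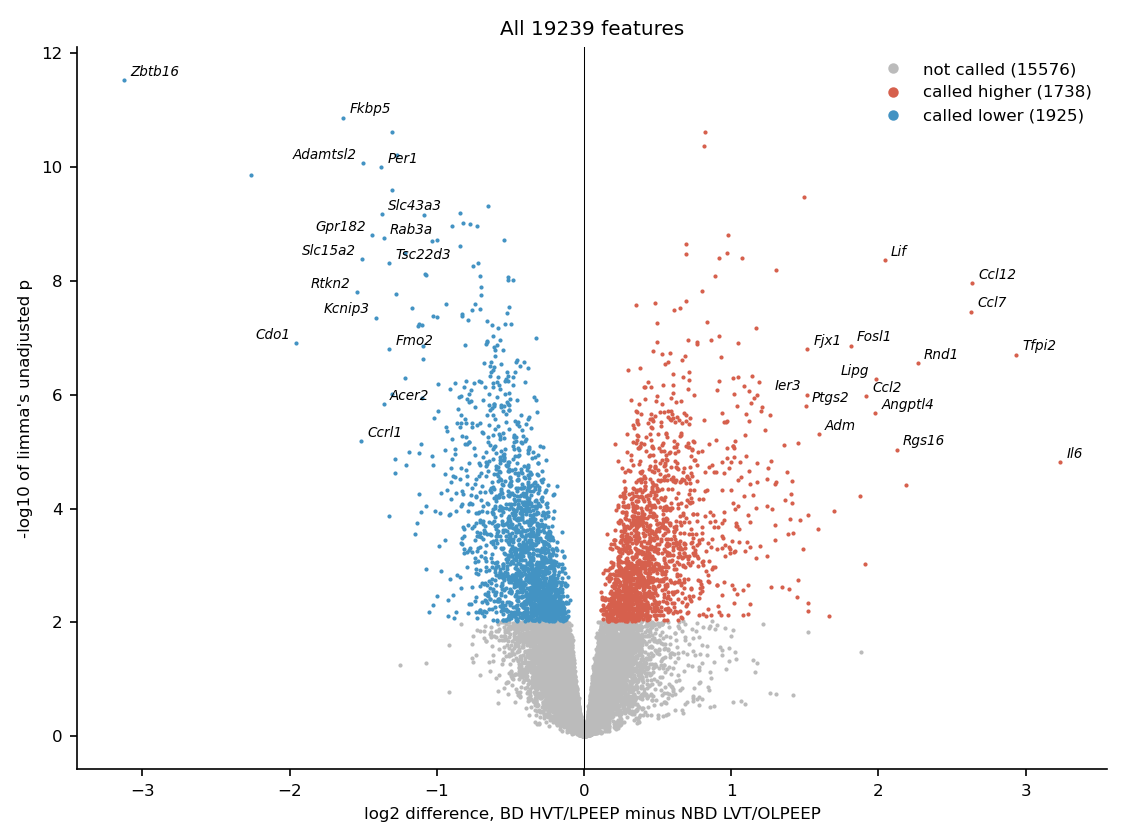
Each point is 1 of 19239 features, with the log2 difference of BD HVT/LPEEP minus NBD LVT/OLPEEP on the x axis and the negative log10 of limma's unadjusted p on the y axis. Red points are the 1738 features called higher and blue points the 1925 called lower, and the 15 largest rises and 15 largest falls without overlap between groups are named.

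Il6, the gene of interleukin 6, a driver of the acute phase response, rose most of all genes with a symbol whose groups did not overlap. Its lowest, median and highest values were 10.59, 11.63 and 12.79 in BD HVT/LPEEP rats, against 7.39, 8.29 and 10.47 in NBD LVT/OLPEEP rats (3.24, SE 0.59, adjusted p = 0.000615). All 6 BD HVT/LPEEP rats lay above every NBD LVT/OLPEEP rat, but the gap was narrow, between BD HVT/LPEEP 37 (10.59) and NBD LVT/OLPEEP 5 (10.47), while the other NBD LVT/OLPEEP rats reached at most 9.02. Lif, leukemia inhibitory factor, which signals through the same gp130 receptor chain, had 10.29, 10.79 and 11.84 in BD HVT/LPEEP rats, against 8.59, 8.80 and 9.06 in NBD LVT/OLPEEP rats (2.04, SE 0.22, adjusted p = 2.43e-06). Here the groups were more than 1 unit of log2 apart. Tnf, the gene of tumor necrosis factor, had 10.49, 11.22 and 11.67 in BD HVT/LPEEP rats, against 9.07, 9.76 and 10.44 in NBD LVT/OLPEEP rats (1.47, SE 0.33, adjusted p = 0.00286), with the groups almost touching. Il1a, which encodes interleukin 1 alpha, a cytokine that dying cells release, was higher by 1.38 (SE 0.26, adjusted p = 0.000788). Il10, whose product restrains inflammation, rose as well, by 1.06. In all, 12 of 21 measured interleukins, tumor necrosis factor and colony-stimulating factors were higher and 0 were lower, with a median of 0.37. Csf2 (0.09), Il33 (-0.39) and Il18 (-0.35) were among the 9 that did not pass.

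Chemokines that attract monocytes rose as well. Ccl12, Ccl7 and Ccl2 all encode ligands of the monocyte receptor CCR2. Ccl12 had 9.82, 11.00 and 11.39 in BD HVT/LPEEP rats, against 7.71, 8.32 and 8.73 in NBD LVT/OLPEEP rats (2.64, SE 0.30, adjusted p = 4.63e-06). For Ccl7 the values were 11.47, 12.05 and 12.22 in BD HVT/LPEEP rats, against 8.69, 9.35 and 10.03 in NBD LVT/OLPEEP rats (2.63, SE 0.32, adjusted p = 1.06e-05). Every BD HVT/LPEEP rat was above every NBD LVT/OLPEEP rat in both genes, by more than 1 unit. Ccl2 rose by 1.92 (SE 0.29, adjusted p = 0.000106). Ccl12, Ccl7 and Ccl2 are among the largest rises, so by the rule that picked them none overlapped. Cxcl1, whose product CINC-1 attracts neutrophils, had 11.13, 12.04 and 12.93 in BD HVT/LPEEP rats, against 9.86, 10.71 and 11.33 in NBD LVT/OLPEEP rats (1.52, SE 0.33, adjusted p = 0.00243), and 1 BD HVT/LPEEP rat (37) lay inside the range of NBD LVT/OLPEEP rats. Xcl1, a chemokine of T and NK cells, was higher by 1.04 without overlap. Of the 26 measured chemokine genes, 15 were higher and 0 were lower, against 9.03% of all features higher, and the median was 0.87. Among the 11 that did not pass were Cxcl12 (-0.09) and Cxcl14 (-0.06), which tissues express without a stimulus, and Cxcl10 (0.98), an interferon target. Cxcl10 was called higher when 1 single rat was left out (adjusted p = 0.0385).

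**Figure D2:**
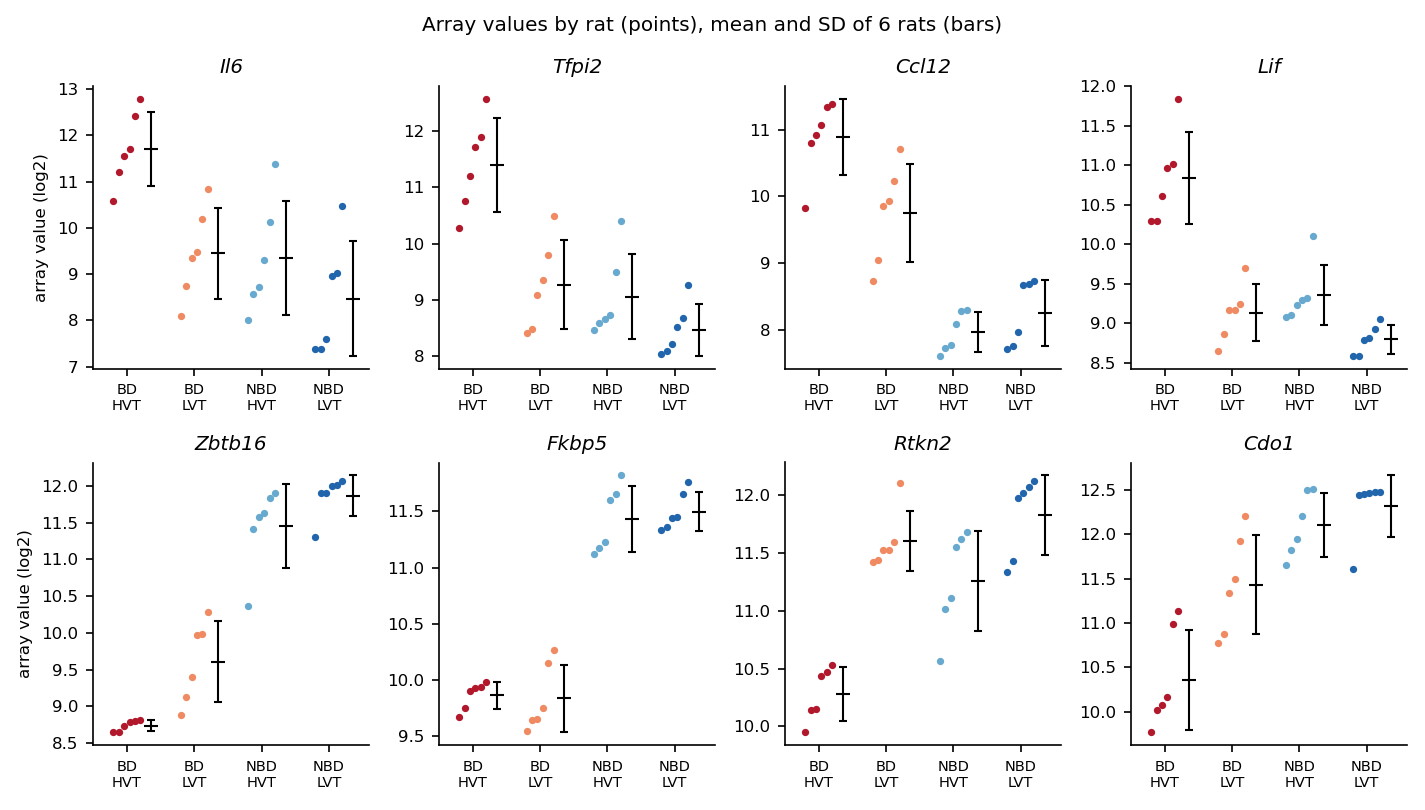
Array values on the log2 scale of 8 genes in each rat (points, ordered by value) of BD HVT/LPEEP, BD LVT/OLPEEP, NBD HVT/LPEEP and NBD LVT/OLPEEP, with the mean and SD of 6 rats (bars). In the upper row the BD HVT/LPEEP rats lie above all NBD LVT/OLPEEP rats, and in the lower row they lie below all of them. All 8 genes were picked from features without overlap between these groups (10.2% of all features).

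Many genes that carry these signals rose too. Nfkb1 and Rel encode subunits of NF-kappaB, and Nfkbie and Nfkbiz encode inhibitor proteins that NF-kappaB itself induces. Nfkbie had 11.61, 11.80 and 12.07 in BD HVT/LPEEP rats, against 10.34, 10.65 and 11.20 in NBD LVT/OLPEEP rats (1.13, SE 0.22, adjusted p = 0.00107), without overlap. Nfkb1 was higher by 0.60 (SE 0.09), Rel by 0.64 and Nfkbiz by 0.87. Rela, which encodes the p65 subunit, did not pass (0.16), and neither did Tlr4 (-0.20), the receptor for endotoxin. Of 27 measured genes of NF-kappaB and Toll-like receptor signalling, 15 were higher and 0 lower, with a median of 0.56. Suppressors of cytokine signalling, which switch off JAK kinases, split. Socs3 had 12.01, 12.09 and 12.35 in BD HVT/LPEEP rats, against 10.24, 10.83 and 11.64 in NBD LVT/OLPEEP rats (1.25, SE 0.23, adjusted p = 0.000713), Socs1 was higher by 1.20, and Socs2, a target of growth hormone, was lower (-0.42, adjusted p = 0.00859). The receptor of Lif went against its ligand. Lifr had 11.05, 11.26 and 11.54 in BD HVT/LPEEP rats, against 12.01, 12.16 and 12.55 in NBD LVT/OLPEEP rats (-0.94, SE 0.17, adjusted p = 0.000436), and all BD HVT/LPEEP rats lay below all NBD LVT/OLPEEP rats. The kinase gene Jak2 was higher by 0.75, whereas Il6st (-0.09) and Stat3 (0.21) did not pass. Stat3 was called higher when any 1 of 5 single rats was left out (adjusted p down to 0.0259). In this list of 23 receptors and feedback genes, 11 were higher and 2 lower.

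The promoters of the named genes were searched for the letters that such factors bind. RefSeq promoter sequences of the rat assembly GRCr8, 250 bases before to 50 after the start of a gene, were matched to 157 of the 212 genes that the rule for named genes selected. They were searched on both strands for the NF-kappaB site, the cAMP response element TGACGTCA, the AP-1 site TGANTCA and the serum response element (CArG box), none of which lies within another. The NF-kappaB site stood in 11.6% of the 1349 promoters of genes called higher and 9.27% of the 1532 of genes called lower, in 18.6% of the 344 of genes called at least 1.5-fold higher and 8.58% of the 303 of genes called at least 1.5-fold lower, and in 8.7% of the 14768 of all measured genes and 7.6% of all 27457 promoters. The AP-1 site stood in 7.56% (higher) and 4.96% (lower) of the called, in 11.3% (higher) and 5.28% (lower) of those called at least 1.5-fold, in 6.37% of the measured and in 7.33% of all. The cAMP response element stood in 4.37% (higher) and 2.28% (lower) of the called, in 4.94% (higher) and 2.64% (lower) of those called at least 1.5-fold, in 2.42% of the measured and in 1.91% of all. The serum response element stood in 1.7% (higher) and 1.44% (lower) of the called, in 2.62% (higher) and 2.31% (lower) of those called at least 1.5-fold, in 1.35% of the measured and in 1.64% of all. A match is a description of the letters and was not tested as a site. The promoters of the 4 largest rises with a match among the named genes, and of the largest fall with one, are shown 5′ to 3′ with every match in capitals. In Il6 (chr4:5894526-5894825 on the minus strand) the first match is the cAMP response element, which begins 162 bases before the start, and the second is the NF-kappaB site, 68 bases before it. In Tfpi2 (chr4:32941227-32941526 on the minus strand), described with the clotting genes, the NF-kappaB site precedes the AP-1 site. Ccl7 (chr10:67513845-67514144 on the plus strand) has the AP-1 site first. In Cxcl1 (chr14:17479272-17479571 on the minus strand) 2 matches of the NF-kappaB site overlap, and in Fmo2 (chr13:77777485-77777784 on the minus strand), a gene that fell, a match begins 36 bases after the start.
Il6: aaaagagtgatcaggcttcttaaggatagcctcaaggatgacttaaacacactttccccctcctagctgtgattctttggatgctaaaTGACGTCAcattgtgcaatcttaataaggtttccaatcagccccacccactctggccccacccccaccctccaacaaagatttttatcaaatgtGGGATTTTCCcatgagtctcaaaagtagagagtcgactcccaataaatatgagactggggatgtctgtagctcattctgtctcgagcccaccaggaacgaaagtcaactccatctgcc
Tfpi2: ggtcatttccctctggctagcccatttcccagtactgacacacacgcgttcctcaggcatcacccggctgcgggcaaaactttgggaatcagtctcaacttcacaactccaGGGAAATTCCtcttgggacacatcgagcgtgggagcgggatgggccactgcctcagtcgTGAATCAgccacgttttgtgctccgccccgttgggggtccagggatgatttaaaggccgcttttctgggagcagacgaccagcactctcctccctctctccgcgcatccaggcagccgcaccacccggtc
Ccl7: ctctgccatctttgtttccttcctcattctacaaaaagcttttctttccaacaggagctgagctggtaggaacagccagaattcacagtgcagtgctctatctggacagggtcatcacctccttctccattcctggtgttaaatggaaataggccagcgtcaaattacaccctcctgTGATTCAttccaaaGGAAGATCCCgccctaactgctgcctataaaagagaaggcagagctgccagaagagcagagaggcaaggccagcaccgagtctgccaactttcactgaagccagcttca
Cxcl1: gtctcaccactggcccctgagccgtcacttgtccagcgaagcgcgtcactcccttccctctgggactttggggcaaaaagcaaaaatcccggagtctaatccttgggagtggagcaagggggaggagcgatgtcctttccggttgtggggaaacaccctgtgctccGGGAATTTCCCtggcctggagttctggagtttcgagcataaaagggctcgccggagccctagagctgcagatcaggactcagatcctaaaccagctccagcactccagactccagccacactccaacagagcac
Fmo2: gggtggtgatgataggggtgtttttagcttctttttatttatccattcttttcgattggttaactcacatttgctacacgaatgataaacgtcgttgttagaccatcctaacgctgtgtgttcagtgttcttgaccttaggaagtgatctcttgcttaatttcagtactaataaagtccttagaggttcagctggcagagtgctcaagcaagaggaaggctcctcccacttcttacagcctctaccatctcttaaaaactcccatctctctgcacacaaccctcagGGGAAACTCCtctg

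Immediate early genes, which cells transcribe first after stretch, growth factors or stress, were the list with the highest share of rises outside the platelet markers. Among the 28 measured, 19 rose and 0 fell, with a median of 0.80. Fosl1, which encodes the AP-1 subunit Fra-1, had 10.53, 10.85 and 11.52 in BD HVT/LPEEP rats, against 8.68, 9.12 and 9.90 in NBD LVT/OLPEEP rats (1.81, SE 0.24, adjusted p = 2.68e-05). Ier3, an early gene that guards against cell death, had 12.50, 12.84 and 13.05 in BD HVT/LPEEP rats, against 10.48, 11.35 and 11.88 in NBD LVT/OLPEEP rats (1.52, SE 0.23, adjusted p = 0.000103). By the rule that picked the largest rises, neither Fosl1 nor Ier3 overlapped between groups. The nuclear receptor gene Nr4a3 was higher by 1.20 and Ier5 by 0.70. Jun (0.14) and Dusp1 (-0.12), which are often counted among the same genes, did not pass. Of 17 measured targets of the stretch-responsive factors YAP and SRF, 7 were higher and 1 was lower. Cyr61, also known as Ccn1, a matrix protein gene induced by YAP, had 12.52, 12.97 and 13.24 in BD HVT/LPEEP rats, against 10.63, 11.67 and 12.38 in NBD LVT/OLPEEP rats (1.30, SE 0.25, adjusted p = 0.00103), and Srf, which encodes the factor itself, rose by 0.59. Ctgf, a neighbouring YAP target in function, did not pass (-0.02, adjusted p = 0.96), and the kinase gene Lats2, which restrains YAP, was lower (-0.39, adjusted p = 0.0451), a call that was lost without any of 13 single rats (differences -0.44 to -0.33, adjusted p up to 0.112). Ligands of the epidermal growth factor receptor that cells shed after injury were higher, as was the receptor. Hbegf had 9.97, 10.45 and 10.98 in BD HVT/LPEEP rats, against 8.76, 9.12 and 9.95 in NBD LVT/OLPEEP rats (1.26, SE 0.20, adjusted p = 0.000171), Areg was higher by 1.24 and Ereg by 1.24, and Egfr by 0.93 (SE 0.13, adjusted p = 3.82e-05). Other members of this list went the other way, namely Egf (-0.32), Tgfa (-0.22) and the receptor gene Erbb2 (-0.34), so that 4 of 11 were higher and 3 lower. Without NBD LVT/OLPEEP 29, 0 were lower, and calls were lost without any of 5 single rats for Egf, 8 for Tgfa and 3 for Erbb2 (adjusted p up to 0.094, 0.0961 and 0.0847). Further large rises concerned regulators of cell shape and G protein signals. Rnd1, whose product loosens actin fibres, had 11.83, 12.12 and 12.21 in BD HVT/LPEEP rats, against 8.98, 9.62 and 10.95 in NBD LVT/OLPEEP rats (2.27, SE 0.31, adjusted p = 4.47e-05). Rgs16, which shortens G protein signals, had 11.68, 12.05 and 12.79 in BD HVT/LPEEP rats, against 9.20, 9.71 and 11.42 in NBD LVT/OLPEEP rats (2.12, SE 0.37, adjusted p = 0.000431). The nearest NBD LVT/OLPEEP rat was rat 5 in both genes, and by the rule that picked the largest rises no rat overlapped. Fjx1, the homologue of the fly gene four-jointed, was higher by 1.52.

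Genes of clotting and of the vessel wall also rose. Tfpi2, a serine protease inhibitor of the matrix and of the tissue factor pathway, had 10.28, 11.46 and 12.57 in BD HVT/LPEEP rats, against 8.04, 8.37 and 9.27 in NBD LVT/OLPEEP rats (2.93, SE 0.40, adjusted p = 3.51e-05), and the groups were 1 unit apart. Procr, the endothelial receptor of protein C, was higher by 1.01 and F13a1, the A chain of the fibrin-crosslinking factor XIII, by 1.02, both without overlap. Tissue factor itself, F3, was higher by 0.66 (adjusted p = 0.00606), with overlap. Of 17 measured genes of coagulation and fibrinolysis 9 were higher and 0 lower, with a median of 0.44, while Thbd (0.30), the gene of thrombomodulin, Tfpi (0.16) and Vwf (-0.25) did not pass. Thbd was called higher when 1 single rat was left out (adjusted p = 0.039). All 8 measured platelet markers were higher (0.84 in the median), among them Ppbp (1.27), Clec1b (1.15), Treml1 (0.74) and Pf4 (0.71). The mean of these markers, each relative to its mean over all 24 rats, was -0.10 to 0.72 in BD HVT/LPEEP rats, against -0.56 to -0.34 in NBD LVT/OLPEEP rats. Whether more platelets or more RNA per platelet were present cannot be told apart in whole tissue, and the same holds for every cell type below. F13a1 is also made by platelets and macrophages, and the part of platelets in its rise was not tested.

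Adhesion molecules by which endothelium holds leukocytes rose in part. Of 16 measured, 4 were higher and 1 lower, and 2 were higher without NBD LVT/OLPEEP 27. Vcam1 had 12.14, 12.60 and 12.90 in BD HVT/LPEEP rats, against 10.61, 11.11 and 12.37 in NBD LVT/OLPEEP rats (1.30, SE 0.25, adjusted p = 0.00109). The selectins Selp (1.52, SE 0.48, adjusted p = 0.0298) and Sele (1.08, SE 0.37, adjusted p = 0.0415) passed narrowly. The groups overlapped through NBD LVT/OLPEEP 5, which had the highest Sele (11.37) and Selp (12.53) of all 12 rats, and without this rat the differences were 1.95 for Selp and 1.48 for Sele. Both calls were lost without some other rats, Selp without any of 6 (differences 1.28 to 1.95, adjusted p up to 0.0846) and Sele without any of 9 (differences 0.87 to 1.48, adjusted p up to 0.116). Icam1 was higher by 0.43 and Icam2, the constitutive form, was lower (-0.46). Adm, which encodes the vasodilator adrenomedullin and responds to low oxygen, had 11.39, 11.68 and 12.14 in BD HVT/LPEEP rats, against 9.59, 10.02 and 10.85 in NBD LVT/OLPEEP rats (1.60, SE 0.27, adjusted p = 0.00029), and the groups did not overlap. Ptgs2, the inducible cyclooxygenase, had 10.07, 10.81 and 10.99 in BD HVT/LPEEP rats, against 8.68, 9.19 and 9.42 in NBD LVT/OLPEEP rats (1.51, SE 0.23, adjusted p = 0.000137), also without overlap. As Adm and Ptgs2 are among the largest rises, their lack of overlap follows from the rule that picked them. Nitric oxide genes were mixed. Nos2, the inducible synthase, was higher by 1.34 (SE 0.39, adjusted p = 0.0187) with overlap, and this call was lost without NBD LVT/OLPEEP 23 (1.16, adjusted p = 0.055) or 27 (1.22, adjusted p = 0.0507). Gch1, which makes the cofactor of the synthases, rose by 1.12 and Arg1, an arginase that competes for their substrate, by 1.03, both without overlap. The soluble guanylate cyclase subunit Gucy1a3, the receptor of nitric oxide, was lower (-0.67, not called without NBD LVT/OLPEEP 23 or BD HVT/LPEEP 24), as were Agtr1a (-0.62), an angiotensin receptor, and Ace (-0.36), the angiotensin-converting enzyme of lung capillaries.

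Some genes of lipid metabolism stood among the largest rises, and of their list 5 of 24 were higher and 3 lower (median -0.08). Lipg, the lipase that endothelium secretes, had 10.80, 11.31 and 12.19 in BD HVT/LPEEP rats, against 9.04, 9.11 and 10.18 in NBD LVT/OLPEEP rats (1.98, SE 0.29, adjusted p = 7.07e-05). Angptl4, a secreted inhibitor of lipoprotein lipase, had 10.97, 11.42 and 11.72 in BD HVT/LPEEP rats, against 8.98, 9.18 and 10.36 in NBD LVT/OLPEEP rats (1.98, SE 0.31, adjusted p = 0.000164). Both are among the largest rises, so by the rule that picked them neither overlapped between groups. Angpt4, the angiopoietin with a similar name, did not pass (0.02, adjusted p = 0.846). The oxysterol enzymes Cyp7b1 and Ch25h were higher by 1.30 and 0.90 with overlap, Ch25h was not called without NBD LVT/OLPEEP 23 (which left 3 rises in the list), and Lpl (-0.36) did not pass. Lpl was called lower when either of 2 single rats was left out (adjusted p down to 0.0291).

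Antioxidant genes split by type. Of 17 measured, 9 were higher and 4 lower. The rises included targets of the stress factor NRF2. Hmox1, the heme oxygenase, had 11.53, 11.73 and 11.87 in BD HVT/LPEEP rats, against 9.97, 10.19 and 11.30 in NBD LVT/OLPEEP rats (1.36, SE 0.23, adjusted p = 0.000386), Txnrd1 was higher by 1.05 (SE 0.14), Srxn1 by 1.10, Slc7a11 by 1.09 and Nqo1 by 0.47. The falls were enzymes that remove peroxide or superoxide in resting tissue, Cat (-0.56), Gpx3 (-0.58), Sod3 (-0.38) and Prdx6 (-0.27), and 2 of the list were lower without NBD LVT/OLPEEP 23. Sod3 was not called without any of 9 single rats and Gpx3 without any of 4 (adjusted p up to 0.0872 and 0.0711). Of 21 hypoxia and glycolysis genes 5 were higher and 2 lower, with 3 higher without NBD LVT/OLPEEP 27 and 0 lower without NBD HVT/LPEEP 13. Hif1a rose by 0.44 (SE 0.09, adjusted p = 0.00174) without overlap, whereas its endothelial relative Epas1 was slightly lower (-0.30, adjusted p = 0.0443), a call lost without any of 12 single rats (differences -0.34 to -0.18, adjusted p up to 0.0968). Vegfa (-0.20) did not pass. None of the 14 measured heat shock chaperones was called by limma (median 0.22). At an unadjusted p under 0.05, 3 were higher and 0 lower, and at most 3 were called when single rats were left out.

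Of 23 matrix and collagen genes 3 were higher and 1 lower, against 9.03% of all features higher and 10.0% lower, and the lower one was not called without BD HVT/LPEEP 28. Has2, a hyaluronan synthase, had 8.66, 9.40 and 9.90 in BD HVT/LPEEP rats, against 7.82, 8.09 and 8.21 in NBD LVT/OLPEEP rats (1.31, SE 0.14, adjusted p = 3.32e-06), and Has1 was higher by 1.18 (SE 0.18), both without overlap. Vcan, whose product versican binds hyaluronan, was higher by 0.67. Adamts1, a protease that cuts versican, had 11.95, 12.20 and 12.39 in BD HVT/LPEEP rats, against 10.75, 11.22 and 11.36 in NBD LVT/OLPEEP rats (1.07, SE 0.12, adjusted p = 2.40e-06), and Timp1, the inhibitor of metalloproteinases, rose by 1.02 and Mmp19 by 1.16. Of 19 metalloproteinases and inhibitors 6 were higher and 1 lower. Col1a1 (0.16), Col3a1 (-0.01) and Fn1 (-0.01) did not pass.

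The largest fall of all genes with a symbol whose groups did not overlap was that of Zbtb16, a transcription factor gene that glucocorticoids induce. It had 8.65, 8.76 and 8.82 in BD HVT/LPEEP rats, against 11.31, 11.95 and 12.06 in NBD LVT/OLPEEP rats (-3.13, SE 0.23, adjusted p = 5.62e-08), and the BD HVT/LPEEP rats lay close together, more than 2 units below the nearest NBD LVT/OLPEEP rat. Fkbp5, a chaperone of the glucocorticoid receptor and its target, had 9.67, 9.92 and 9.98 in BD HVT/LPEEP rats, against 11.33, 11.45 and 11.76 in NBD LVT/OLPEEP rats (-1.64, SE 0.13, adjusted p = 1.18e-07). Per1, a clock gene that glucocorticoids also induce, had 9.82, 10.21 and 10.52 in BD HVT/LPEEP rats, against 11.30, 11.53 and 11.92 in NBD LVT/OLPEEP rats (-1.38, SE 0.12, adjusted p = 2.39e-07), and Tsc22d3, the glucocorticoid-induced leucine zipper, had 9.20, 9.42 and 9.65 in BD HVT/LPEEP rats, against 10.27, 10.78 and 11.05 in NBD LVT/OLPEEP rats (-1.33, SE 0.14, adjusted p = 2.64e-06). These 4 are among the largest falls, so by the rule that picked them none overlapped between groups. Klf9 (-0.78), Sesn1 (-0.71) and Hsd11b1 (-0.39), which regenerates active glucocorticoid, fell too, and Anxa1, an anti-inflammatory target, was higher (0.46), so that 7 of 17 measured members were lower and 1 was higher (median -0.34). The receptor gene Nr3c1 (-0.19) and the targets Sgk1 (-0.14) and Ddit4 (-0.05) did not pass. Of 15 clock genes 3 were lower, Per1, Nr1d1 (-0.91) and Tef (-0.76), and 3 were higher, Cry1 (0.41), Nfil3 (0.57) and Bhlhe40 (0.55), while Per2 (0.08) and Arntl (0.22) did not pass. The call of Nfil3 was lost without any of 8 single rats (differences 0.51 to 0.64, adjusted p up to 0.0882) and without moderation of the variances. The part of the time of day in these values was not tested.

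Many genes of the alveolar epithelium were lower. Rtkn2, a marker of type I cells, had 9.95, 10.29 and 10.53 in BD HVT/LPEEP rats, against 11.34, 12.00 and 12.12 in NBD LVT/OLPEEP rats (-1.55, SE 0.18, adjusted p = 6.24e-06), and Emp2, a membrane protein gene of the same cells, had 11.94, 12.02 and 12.17 in BD HVT/LPEEP rats, against 12.44, 12.55 and 12.67 in NBD LVT/OLPEEP rats (-0.51, SE 0.06, adjusted p = 9.68e-06). The 2 groups did not overlap in either gene, which for Rtkn2 follows from the rule that picked the largest falls. Of 13 type I markers 7 were lower and 1 was higher (Pdpn, 0.29), with a median of -0.26, and Ager (-0.03) did not pass. Without NBD LVT/OLPEEP 23, 4 were lower. Abca3, which loads surfactant lipids into lamellar bodies, had 11.13, 11.40 and 11.58 in BD HVT/LPEEP rats, against 11.91, 12.01 and 12.14 in NBD LVT/OLPEEP rats (-0.64, SE 0.09, adjusted p = 4.81e-05). Of 13 type II markers 6 were lower and 0 higher (median -0.21), including Etv5 (-0.59), Nkx2-1 (-0.34) and Sftpb (-0.21), while Sftpc (-0.04) and Sftpa1 (-0.09) lay near the upper end of the scale and did not pass. Without BD HVT/LPEEP 22, 4 were lower, and Nkx2-1 and Sftpb were each not called without either of 2 single rats (adjusted p up to 0.0539 and 0.0674). Some channels and pumps that move sodium, and with it fluid, out of the airspace were lower as well. Scnn1a, the alpha subunit of the epithelial sodium channel, had 10.74, 11.49 and 11.72 in BD HVT/LPEEP rats, against 12.16, 12.28 and 12.37 in NBD LVT/OLPEEP rats (-0.86, SE 0.14, adjusted p = 0.000209). Scnn1g, the gamma subunit, was lower by a log2 difference of -0.77, and Atp1b1, a subunit of the sodium pump, of -0.57. Nedd4l, a ubiquitin ligase that removes the same channel from the membrane, also fell (-0.79, SE 0.10, adjusted p = 1.35e-05). Scnn1b (0.06) did not pass. In this list 5 of 13 were lower and 0 higher. Of 11 tight junction genes 4 were lower, with Cgn (-0.37), F11r (-0.38) and Cldn18 (-0.21) among them, and 2 were higher, Cldn4 (0.87) and Cldn7 (0.56).

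Of 20 xenobiotic enzymes 10 were lower and 2 higher, against 10.0% of all features lower and 9.03% higher, with a median of -0.33. Cdo1, cysteine dioxygenase, which is not in that list, had 9.77, 10.13 and 11.14 in BD HVT/LPEEP rats, against 11.61, 12.46 and 12.47 in NBD LVT/OLPEEP rats (-1.96, SE 0.26, adjusted p = 2.55e-05), and 5 of the 6 NBD LVT/OLPEEP rats lay between 12.44 and 12.47. Fmo2, a flavin monooxygenase gene, had 11.90, 12.12 and 12.36 in BD HVT/LPEEP rats, against 13.02, 13.54 and 13.63 in NBD LVT/OLPEEP rats (-1.32, SE 0.18, adjusted p = 3.00e-05). The cytochromes Cyp2e1 (-1.29) and Cyp2b1 (-1.12), the esterase Ces3 (-0.47) and the oxidase Aox1 (-0.71) were lower too. The 2 xenobiotic enzymes that were higher were Nqo1 and Cyp1b1 (0.61), and the call of Cyp1b1 was lost without any of 8 single rats (differences 0.50 to 0.76, adjusted p up to 0.103), without moderation of the variances and on the 12 arrays alone, so that without NBD LVT/OLPEEP 27 the list had 1 rise. Markers of the club cells that hold many of these enzymes were not called in either direction (0 of 9 by limma, 0 higher and 1 lower at an unadjusted p under 0.05, median -0.03), and Scgb1a1, their defining marker, differed by -0.17. Scgb1a1 was called lower when any 1 of 5 single rats was left out (adjusted p down to 0.0288). Transporters and signalling genes completed the largest falls. Slc15a2, a peptide transporter, had 8.93, 9.02 and 9.40 in BD HVT/LPEEP rats, against 10.00, 10.65 and 11.07 in NBD LVT/OLPEEP rats (-1.51, SE 0.16, adjusted p = 2.43e-06), and Slc43a3, a nucleobase transporter, had 11.49, 11.70 and 11.98 in BD HVT/LPEEP rats, against 12.81, 12.99 and 13.49 in NBD LVT/OLPEEP rats (-1.37, SE 0.13, adjusted p = 8.99e-07). Adamtsl2, a matrix glycoprotein gene linked to fibrillin and TGF-beta, had 8.97, 9.33 and 9.45 in BD HVT/LPEEP rats, against 10.54, 10.73 and 11.17 in NBD LVT/OLPEEP rats (-1.50, SE 0.13, adjusted p = 2.34e-07). Gpr182, an endothelial receptor that binds chemokines, had 10.20, 10.45 and 10.91 in BD HVT/LPEEP rats, against 11.61, 12.02 and 12.18 in NBD LVT/OLPEEP rats (-1.44, SE 0.15, adjusted p = 1.43e-06), and Ccrl1 (now Ackr4), which scavenges CCL19 and CCL21, had 9.06, 9.10 and 9.51 in BD HVT/LPEEP rats, against 10.03, 10.78 and 11.20 in NBD LVT/OLPEEP rats (-1.52, SE 0.26, adjusted p = 0.000355). Kcnip3, a calcium-binding regulator of potassium channels (-1.41), Acer2, a ceramidase (-1.36), and Rab3a, a GTPase of secretory vesicles (-1.36), fell as well. By the rule that picked the largest falls, none of these transporter and signalling genes overlapped between groups.

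Of 22 measured transcription factors of lung lineages 11 were lower and 2 were higher (median -0.34). Gata2, a factor of endothelium, had 9.69, 10.20 and 10.32 in BD HVT/LPEEP rats, against 10.66, 10.89 and 11.24 in NBD LVT/OLPEEP rats (-0.80, SE 0.13, adjusted p = 0.000209), and Tbx2, a factor of lung mesenchyme, had 9.92, 10.65 and 11.04 in BD HVT/LPEEP rats, against 11.11, 11.42 and 11.72 in NBD LVT/OLPEEP rats (-0.80, SE 0.15, adjusted p = 0.000758). Tbx5 (-0.79), Foxp2 (-0.72), Sox17 (-0.64) and Gata5 (-0.63) fell as well, whereas Sox2 (0.06), Foxa2 (0.07) and Gata6 (-0.22) did not pass. The 2 that were higher were Sox7 (0.40) and Meox2 (0.58), and Sox7 was not called without any of 5 single rats (differences 0.33 to 0.50, adjusted p up to 0.0648), which left 1 without NBD LVT/OLPEEP 27. Receptors and brakes of developmental pathways moved in both directions. Fzd4, a Wnt and norrin receptor of endothelium, had 10.59, 10.99 and 11.72 in BD HVT/LPEEP rats, against 12.08, 12.43 and 12.57 in NBD LVT/OLPEEP rats (-1.28, SE 0.24, adjusted p = 0.000819), with 3 of 19 Wnt genes lower and 2 higher (1 higher without BD HVT/LPEEP 28). Smad6, an inhibitor of BMP signals in endothelium, was lower by a log2 difference of -1.33 (SE 0.29, adjusted p = 0.00252) with overlap, and Inhba, which encodes the activin A chain, was higher by 0.94. Pdgfra, a receptor of fibroblasts, fell without overlap (-0.80, SE 0.12, adjusted p = 7.39e-05). Vegfb (-0.65), Figf (now Vegfd, -0.94) and Angpt1 (-0.73) were the 3 of 16 angiopoietin and VEGF genes that fell, and none rose. This share called, 18.8%, is close to the 19.0% of all features called in either direction. The call of Angpt1 was lost without any of 10 single rats (differences -0.80 to -0.67, adjusted p up to 0.0805). Among markers of lung capillary endothelium 3 of 13 were lower, and 1 without NBD LVT/OLPEEP 27. The general endothelial markers Cdh5 (-0.13) and Pecam1 (-0.18) did not pass.

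Responses to catecholamines and to cell stress were mixed. Over all features 9.03% were higher and 10.0% lower, together 19.0%. Among the lists below, stretch-gated channels (16.7% called), cell cycle (16.7%), respiratory chain (19%), fibroblasts (18.2%) and ciliated cells (15.4%) lay near that share. Smooth muscle and pericytes (10%), mast cells (11.1%) and complement (6.67%) lay under it. Of 19 adrenergic and cAMP genes 5 were higher and 4 lower. The receptor genes Adra1a (-0.92, SE 0.20, adjusted p = 0.00245) and Adra1b (-0.43) fell, and Crem (0.77), a cAMP-induced transcription factor gene, and Pde4b (0.61), which degrades cAMP, rose. Ppargc1a, a coactivator of mitochondrial genes, was lower (-1.14, adjusted p = 0.00306). In the unfolded protein and integrated stress response 3 of 19 were higher, namely Ppp1r15a (0.88), Ddit3 (0.39) and Atf4 (0.36), and 2 lower, Herpud1 (-0.48) and the kinase gene Eif2ak3 (-0.30). Of 19 genes of apoptosis and p53 7 were higher and 2 lower. The death receptor gene Fas (0.52), Pmaip1 (0.63), which opposes survival proteins, and the p53 inhibitor gene Mdm2 (0.47) rose, while the survival genes Bcl2 (-0.70) and Bcl2l1 (-0.43) fell. Prostaglandin and leukotriene enzymes gave 4 rises of 15, among them the synthases Ptges (0.94, not called without any of 5 single rats) and Ptgis (0.89), and 1 fall, Alox5ap (-0.46). The endothelin, angiotensin and nitric oxide systems gave 4 rises and 3 falls of 17, with 2 rises without NBD LVT/OLPEEP 27. BMP and TGF-beta signalling gave 5 rises, with Bmp2 (0.60) and the activin inhibitor gene Fst (0.71) among them, and 4 falls, with Bmp4 (-0.49), of 19. Among 12 stretch-gated ion channels Trpc6 (0.66) was higher and Pkd1 (-0.52) lower. In the cell cycle Mcm3 (0.54), Pcna (0.33) and Ccnb1 (0.63) were the 3 of 18 called, all higher, and 1 was called without BD HVT/LPEEP 24. Ccnb1 was not called without any of 5 single rats (adjusted p up to 0.105), nor Pcna without either of 2. Of 21 respiratory chain genes 4 were higher, including Cox5b (0.46) and Sdhb (0.43), and 2 without NBD LVT/OLPEEP 30. Of 15 complement genes the regulator Cd59 (-0.36) was called, and it was lower. Markers of stromal cells gave 2 falls of 11 for fibroblasts, Pdgfra and Tcf21 (-0.60), and 1 of 10 for smooth muscle and pericytes. Ciliated cell markers had 1 rise and 1 fall of 13, and mast cell markers 1 fall of 9. The falls of the smooth muscle and ciliated markers were not called without NBD LVT/OLPEEP 30, nor that of the mast cell marker without NBD LVT/OLPEEP 27. Limma called 0 of 6 mesothelial, 0 of 6 erythroid and 0 of 12 skeletal muscle markers, and at an unadjusted p under 0.05 it called 0 of each. The mean of the skeletal muscle markers reached 3.488 in BD LVT/OLPEEP (median -0.145), and that spread entered the fit. It was -0.173 to 0.154 in BD HVT/LPEEP and -0.29 to -0.191 in NBD LVT/OLPEEP rats. At most 1 of these markers was called when single rats were left out.

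Markers of leukocytes were called in part, with 27.3% of lymphocyte, 20% of neutrophil and 11.8% of macrophage and monocyte markers called in either direction, against 19.0% of all features. Of 20 neutrophil markers 3 were higher, Camp (1.13), S100a8 (0.83) and Ncf1 (0.60), and 1 was lower, Il8ra (now Cxcr1, -0.84). The median was 0.22, and calls were lost without any of 7 rats for Camp (differences 0.98 to 1.33, adjusted p up to 0.0784) and without any of 8 for S100a8 (differences 0.71 to 1.04, adjusted p up to 0.108). Without NBD LVT/OLPEEP 30, 1 marker was higher. The mean of the neutrophil markers was -0.07 to 0.48 in BD HVT/LPEEP rats, against -0.38 to 0.39 in NBD LVT/OLPEEP rats, so that the groups overlapped. For macrophages and monocytes 1 of 17 markers was higher and 1 lower, Fcgr1a (0.51) and Mrc1 (-0.68), and the call of Fcgr1a was lost without any of 8 single rats (differences 0.42 to 0.62, adjusted p up to 0.0959) and on the 12 arrays alone. Lymphocyte markers (T, B and NK cells) were called higher for 6 of 22 and lower for 0, among them the B cell marker Ms4a1 (0.96) and the cytotoxic genes Gzmb (1.05) and Prf1 (0.69), which activated cells make in greater amounts, while Cd3e (0.29) and Cd4 (-0.29) did not pass. Without NBD LVT/OLPEEP 30, 3 were higher. The part of these cells in the rises of cytokine genes was not tested. Interferon-stimulated genes had a median of 0.74, and 6 of 25 (24%) were called higher, against 9.03% of all features, while rats of 1 group differed widely. Isg15 had 10.55, 12.47 and 13.02 in BD HVT/LPEEP rats, against 9.55, 10.78 and 12.46 in NBD LVT/OLPEEP rats (1.45, SE 0.44, adjusted p = 0.0247), and this call was lost without any of 5 single rats (differences 1.19 to 1.79, adjusted p up to 0.0725). The list had 3 calls without NBD LVT/OLPEEP 27 and up to 16 when another rat was left out.

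**Figure D3:**
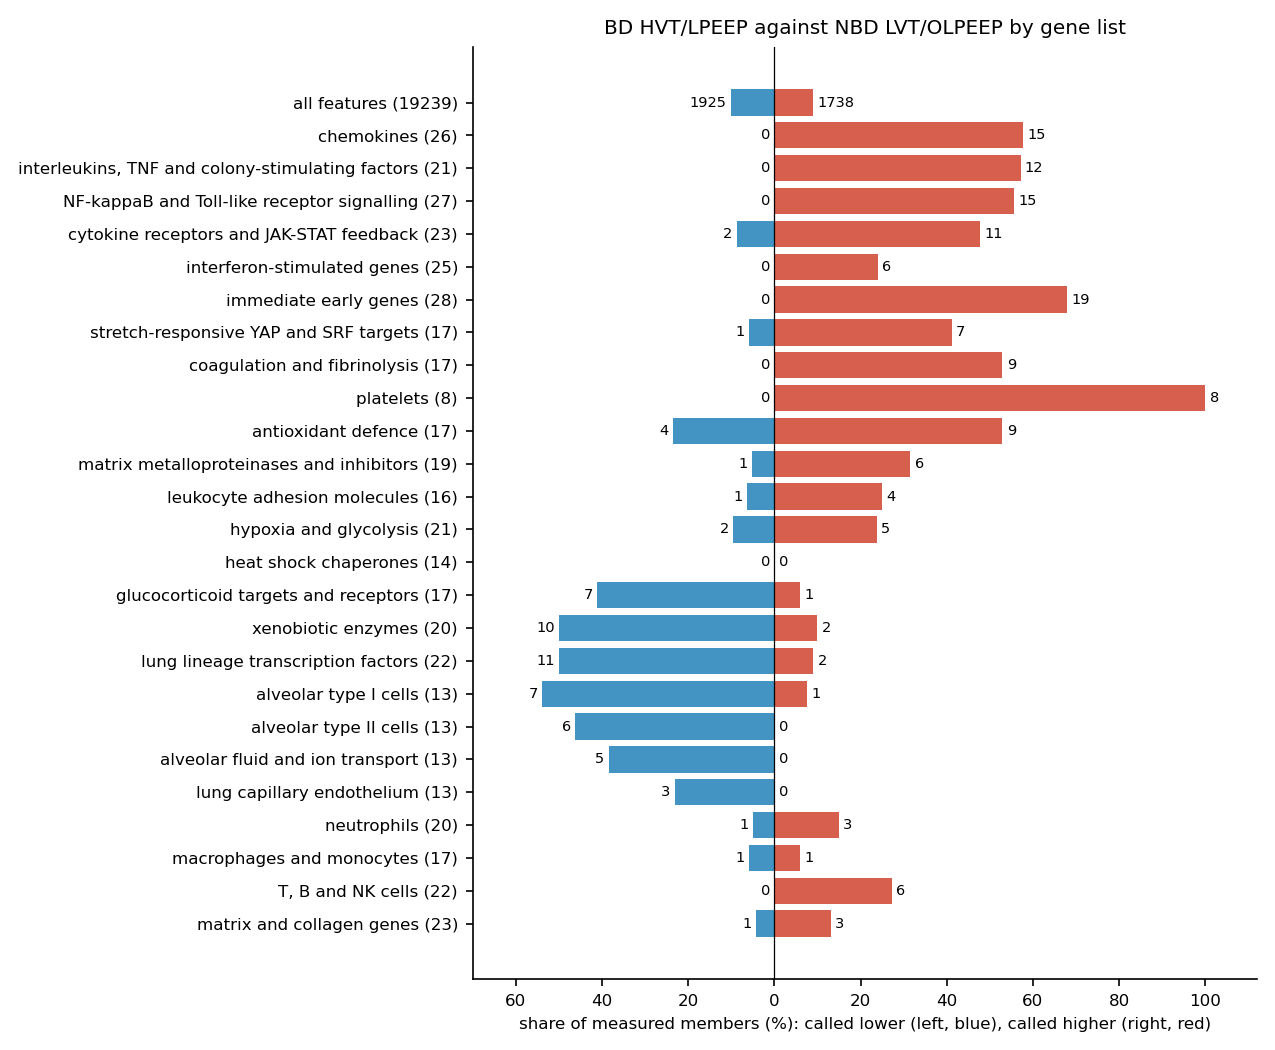
Bars give the share of measured members of each gene list called higher (right, red) or lower (left, blue) in BD HVT/LPEEP against NBD LVT/OLPEEP, with the number of members measured in brackets and the number called beside the bar. The uppermost bar gives all 19239 features, of which 9.03% were higher and 10.0% lower.

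Within BD HVT/LPEEP the values differed between rats. The mean of the 26 chemokine genes, each relative to its mean over all 24 rats, was 0.24 to 0.94 in BD HVT/LPEEP rats, against -0.58 to -0.02 in NBD LVT/OLPEEP rats. The lowest BD HVT/LPEEP value belonged to rat 37 and the highest to rat 11. Rat 11 was also highest for immediate early genes (0.78, against 0.24 to 0.53 in the other 5 BD HVT/LPEEP rats) and lowest for xenobiotic enzymes (-0.60, against -0.24 to -0.12). The same rat was lowest of all 24 for the means of club cell (-0.87), ciliated cell (-0.59) and fibroblast (-0.50) markers. The part of cell composition in its values was not tested. For interferon-stimulated genes rat 37 had -0.52 and rat 11 had 1.39, and NBD LVT/OLPEEP 30 had 1.06, above 5 of the 6 BD HVT/LPEEP rats. Glucocorticoid targets varied little in comparison (-0.39 to -0.22 in BD HVT/LPEEP rats, against 0.14 to 0.47 in NBD LVT/OLPEEP rats). Markers of cardiac muscle, which lines the pulmonary veins of rodents, reached 2.08 in BD HVT/LPEEP 37 and at most 0.68 in the other 11 rats of the comparison, and 0 of the 11 measured were called by limma (0 higher and 0 lower at an unadjusted p under 0.05). Without rat 37 the comparison gave 3574 calls and without rat 11 it gave 3429. In NBD LVT/OLPEEP, rat 5 had the highest Il6, Sele and Hmox1 (11.30) and the lowest Cdo1 (11.61) of its group, and without it 3814 features were called.

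**Figure D4:**
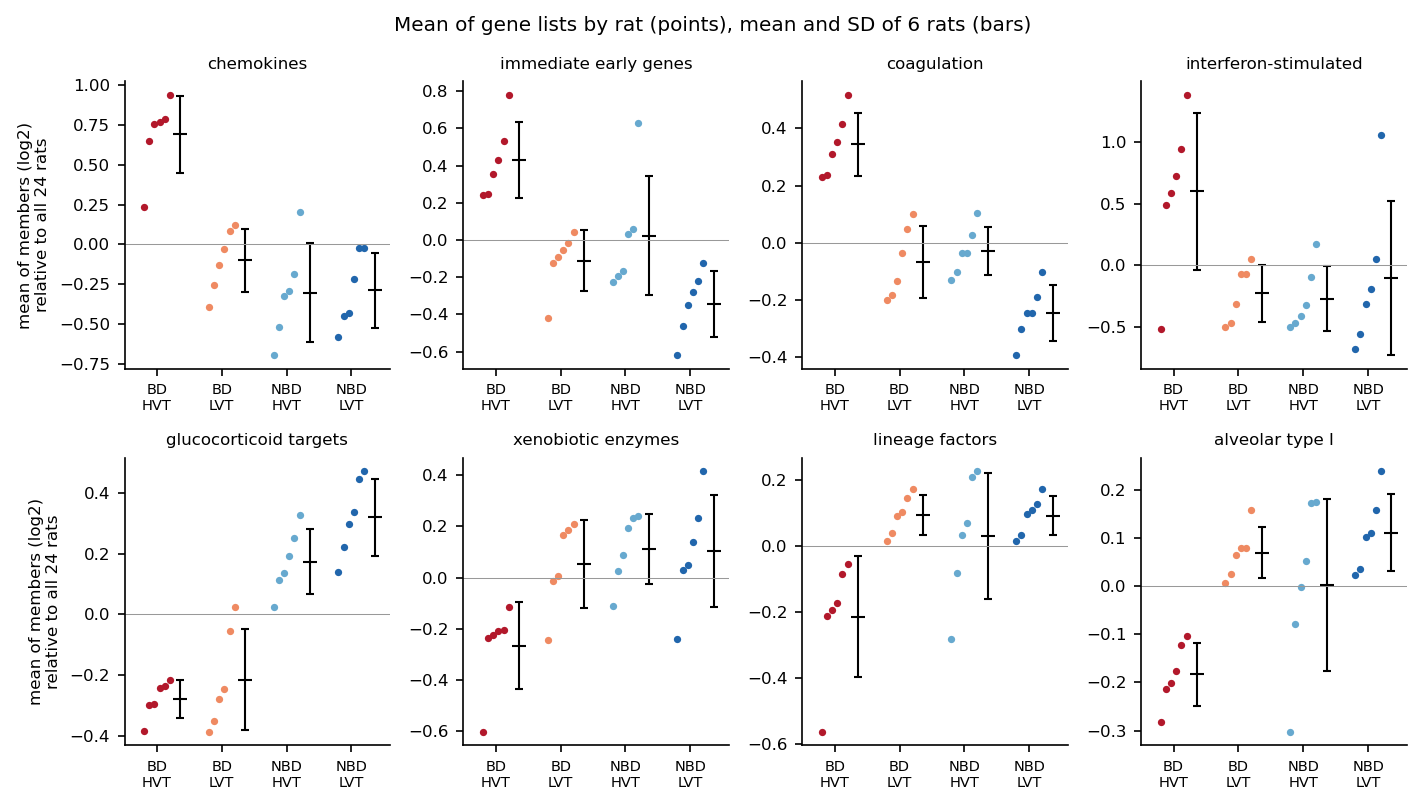
Mean log2 value of the members of 8 gene lists in each rat (points, ordered by value), each member taken relative to its mean over all 24 rats, with the mean and SD of 6 rats (bars). Chemokines, immediate early and clotting genes lie higher and glucocorticoid targets, lineage factors and type I markers lower in all BD HVT/LPEEP rats than in any NBD LVT/OLPEEP rat, whereas interferon-stimulated genes spread widely within both groups.

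The rats with 1 insult give a scale for these differences. The comparisons of BD LVT/OLPEEP and of NBD HVT/LPEEP with NBD LVT/OLPEEP use the same NBD LVT/OLPEEP rats as the comparison above, so their values are given side by side and were not set against each other. With brain damage alone, limma called 142 features (0.738%), 40 higher and 102 lower. At an unadjusted p under 0.05 there were 2230, limma with array weights called 608, and the count ranged from 57 without NBD LVT/OLPEEP 27 to 267 without NBD HVT/LPEEP 12. With HVT/LPEEP alone, limma called 0 features (0%, smallest adjusted p = 0.0789), 3127 had an unadjusted p under 0.05, and limma with array weights called 50. Among glucocorticoid targets, Fkbp5 differed by -1.64 in BD HVT/LPEEP, by -1.66 in BD LVT/OLPEEP (adjusted p = 1.97e-07) and by -0.07 in NBD HVT/LPEEP (adjusted p = 0.826). For Zbtb16 the differences were -3.13, -2.25 (adjusted p = 9.91e-06) and -0.41 (adjusted p = 0.371), and for Per1 -1.38, -1.21 and 0.05, in the same order. Among cytokine genes, Il6 differed by 3.24 in BD HVT/LPEEP, by 0.97 in BD LVT/OLPEEP and by 0.88 in NBD HVT/LPEEP, and only the first difference passed. Ccl7 had 2.63, 1.11 (adjusted p = 0.125) and 0.38. Of the 26 measured chemokine genes, limma called 1 higher and 0 lower with brain damage alone, against 0.738% of all features called. Lipg had 1.98 with both insults, 0.01 with brain damage alone and 0.32 with HVT/LPEEP alone, and Has2 had 1.31, 0.20 and 0.01. Cyr61 differed by 1.30 with both insults, by 0.32 with brain damage alone and by 1.01 with HVT/LPEEP alone (adjusted p = 0.253).

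**Figure D5:**
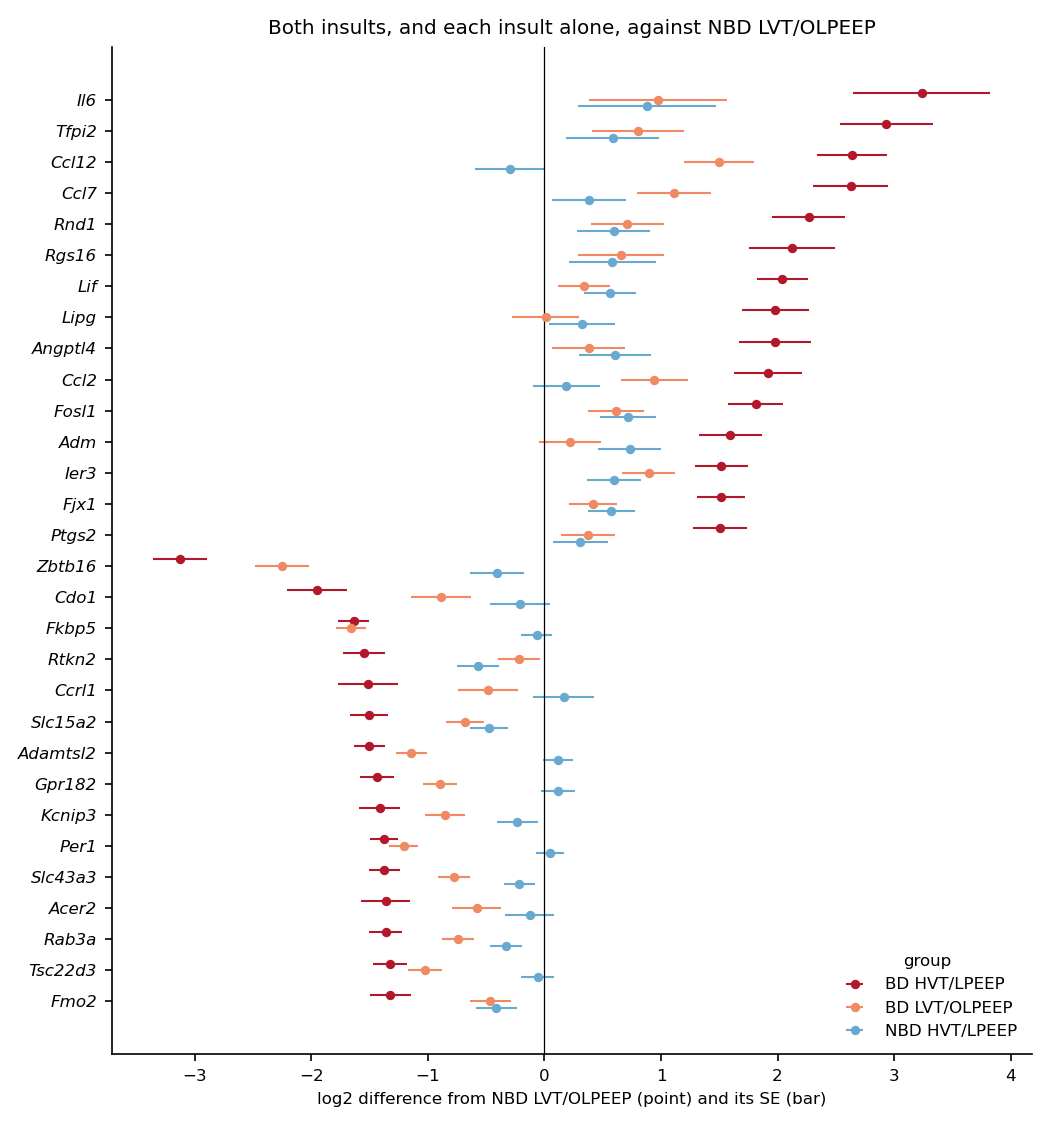
For the 15 largest rises and the 15 largest falls, points give the log2 difference from NBD LVT/OLPEEP and bars its SE, for BD HVT/LPEEP (red), BD LVT/OLPEEP (orange) and NBD HVT/LPEEP (blue). Il6 differs by 3.24 in BD HVT/LPEEP, Fkbp5 by -1.64 in BD HVT/LPEEP and by -1.66 in BD LVT/OLPEEP, and all 3 comparisons share the NBD LVT/OLPEEP rats.

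Whether both insults together differ from the sum of each alone was tested as the departure from additivity over all 24 rats. Only 2 features passed (0.0104%), Fzd2, a Wnt receptor gene, and Trim3, a ubiquitin ligase gene. Fzd2 departed by -0.84 (SE 0.14, adjusted p = 0.0455). Its values were 9.29, 9.55 and 9.74 in BD HVT/LPEEP rats, against 9.96, 10.06 and 10.29 in NBD LVT/OLPEEP rats, while its differences were 0.15 with brain damage alone and 0.12 with HVT/LPEEP alone. For Trim3 the departure was -0.48 (SE 0.08, adjusted p = 0.0455), with 10.70, 10.78 and 10.90 in BD HVT/LPEEP rats, against 11.18, 11.32 and 11.44 in NBD LVT/OLPEEP rats. At an unadjusted p under 0.05, 2629 features departed. The count after adjustment ranged from 0 to 134 when single rats were left out, with 134 without BD HVT/LPEEP 37, and it was 149 with animal number as a covariate. It was 0 after most omissions of a single rat, with a trended and robust prior, without moderation and with Holm's correction. The departures were positive for Il6 (1.38, adjusted p = 0.477), Lipg (1.65, adjusted p = 0.105) and Has2 (1.10, adjusted p = 0.0734) and did not pass. For Fkbp5 the departure was 0.09 (SE 0.18).

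The remaining 12 rats allow a comparison that shares no array with the one above, BD LVT/OLPEEP against NBD HVT/LPEEP, in which each group has 1 of the 2 insults. Limma called 229 features there (1.19%), 47 higher and 182 lower in BD LVT/OLPEEP. This count was 49 when only these 12 arrays were fitted, and it ranged from 86 without BD LVT/OLPEEP 14 to 402 without NBD HVT/LPEEP 10. Of the 229, 135 were also called between BD HVT/LPEEP and NBD LVT/OLPEEP, which is 59% of them and 3.69% of the 3663, and 19.0% of all features were called between BD HVT/LPEEP and NBD LVT/OLPEEP. Both comparisons draw their spread from the same fit, so they are not fully independent. The direction was the same for 25 that were higher and 105 that were lower, and opposite for 5. Fkbp5 differed by -1.59 in BD LVT/OLPEEP minus NBD HVT/LPEEP (adjusted p = 4.44e-07), Zbtb16 by -1.85 (adjusted p = 0.000153), Per1 by -1.26 (adjusted p = 5.27e-06) and Ccl12 by 1.79 (adjusted p = 0.00312). Adamtsl2 (-1.26), Gpr182 (-1.02) and Tsc22d3 (-0.97) were called there too. Il6 (0.09, adjusted p = 0.961), Lif (-0.22), Lipg (-0.31) and Rtkn2 (0.35) did not pass.

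Of 12 genes that were also assayed by qPCR, 10 were higher on the arrays, 0 were lower, and Casp1 and Angpt4 did not pass. These genes had been chosen from the same arrays, so the count is no independent evidence of their direction. Angpt4 was among the 40% dimmest features. By qPCR the study found it higher in BD HVT/LPEEP than in BD LVT/OLPEEP, which is another pair of groups. Casp1, the gene of the caspase that activates interleukin 1 beta, had 10.67, 11.36 and 11.98 in BD HVT/LPEEP rats, against 11.02, 11.20 and 11.76 in NBD LVT/OLPEEP rats (0.09, SE 0.22, adjusted p = 0.821).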

How the data were processed

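The authors deposited 1 table of log2 values, 19239 features by 24 Affymetrix arrays, 1 array per rat and right lung. Every array held the same set of 19239 values in a different order, as quantile normalization leaves them. The log base was inferred from the range, 5.73 to 14.53, and no source used here gives the background correction or the probe summary. Of the features, 16592 had 1 gene symbol in GEO's platform annotation and 2647 had none. For 16453 the feature number was a gene identifier of the RefSeq table, and 16420 of these had a matching symbol or synonym there.

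Groups came from the sample descriptions in the labels. The deposited values were fitted with limma 3.58.1 in R 4.3.3 as 4 group means over 24 arrays, which left 20 residual degrees of freedom, with empirical Bayes moderation and Benjamini-Hochberg adjustment over all features at 0.05. The study's own methods name a mixed-model analysis of variance with Holm's correction in another program, which was not run here; Holm's correction of the limma p-values was an alternative. P-values measure the spread between rats. No counts or depth exist for arrays, and the number of rats limits the precision.

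Named genes were the 15 largest rises and 15 largest falls among called features with 1 symbol and no overlap between groups, the qPCR genes of the study, up to 4 members of each gene list with the smallest p in each direction among those called, called members that went against most of their list, and features called for non-additivity. Other list members in the text were chosen after their values were seen. The comparison, the 34 pathway lists and the 16 cell type marker lists were chosen with earlier results of these data known. Genes were matched to RefSeq promoter sequences by gene identifier, with the first start listed for each gene. The fit was tested on simulated data. Alternatives covered normalization, dim features, moderation, array weights, correction, a 1.5-fold minimum, animal number, the arrays in the fit, each rat, each pair of the BD HVT/LPEEP rats left out, and, chosen after seeing the data, NBD HVT/LPEEP 12 and BD LVT/OLPEEP 16 left out together.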

Additional observations from a re-analysis of the deposited data

Results flagged for a closer look

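In 454 sets of 6 rats, the BD HVT/LPEEP and the NBD LVT/OLPEEP values of 219 genes and 8 list means, the farthest rat was compared with the rest by Dixon's ratio, and 26 sets had 1 rat far from the other 5. Chance flags about 1 in 20 sets, so this number is close to what chance gives.

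BD HVT/LPEEP 37 was flagged in inflammatory and in other genes. It was lowest of its group for Ccl7 (11.47), Il1a (10.05), Isg15 (10.55), Nos2 (11.75) and the surfactant gene Sftpa1 (14.09), and highest for Cxcl14 (11.32) and Icam2 (10.03). For Eif2ak3 it was highest (10.36). BD HVT/LPEEP 22 was lowest for Cat (11.92), Epas1 (12.83), Erbb2 (8.96) and Scnn1a (10.74) and highest for Hsd11b1 (11.85). BD HVT/LPEEP 11 was lowest for Prdx6 (12.45) and for the mean of the xenobiotic enzymes (-0.60), and highest for Bcl2l1 (10.00).

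NBD LVT/OLPEEP 5 was lowest of its group for Cdo1 (11.61), Cxcl12 (9.63), Kcnip3 (10.16) and Zbtb16 (11.31), and highest for Bhlhe40 (12.43) and Mmp19 (10.28). NBD LVT/OLPEEP 30 was highest for Adamtsl2 (11.17) and highest for Crem (9.91), NBD LVT/OLPEEP 27 was lowest for Ppp1r15a (9.68), and NBD LVT/OLPEEP 6 was highest for the mean of the cardiac muscle markers (0.56).

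By the test of the departure from additivity in limma, Fzd2 (-0.84, adjusted p = 0.0455) and Trim3 (-0.48, adjusted p = 0.0455) passed narrowly among 19239 features. No feature passed with a trended and robust prior, without moderation, with Holm's correction or after most omissions of a single rat.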

How the results depend on the processing

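The count of 3663 features between BD HVT/LPEEP and NBD LVT/OLPEEP moved to 5857 with array weights, 264 with Holm's correction, 6085 without adjustment, 839 with a 1.5-fold minimum and 2350 for the pair of BD HVT/LPEEP rats whose removal cost most. Leaving out single rats gave 2747 to 4499. For brain damage alone (142) the counts were 87 with a trended and robust prior, 608 with array weights, 17 with Holm, 2230 unadjusted, 42 with the fold minimum and 57 to 267 without single rats. For HVT/LPEEP alone (0) they were 50 with array weights, 3127 unadjusted and 0 to 12 without single rats, 12 without NBD LVT/OLPEEP 5. For additivity (2) they were 1 without dim features, 0 with the trended prior, 0 without moderation, 41 with array weights, 0 with Holm, 2629 unadjusted, 1 with the fold minimum, 149 with animal number, 20 without NBD HVT/LPEEP 12 and BD LVT/OLPEEP 16, 0 and 266 over the pairs and 0 to 134 without single rats. For BD LVT/OLPEEP against NBD HVT/LPEEP (229) they were 25 with Holm, 2814 unadjusted, 59 with the fold minimum, 49 on the 12 arrays of these groups alone, 93 without the 2 arrays named above and 86 to 402 without single rats. The causes were not tested. Of 212 named genes, 164 were lost with Holm, 77 with the 1.5-fold minimum and 13 without moderation. Leaving out pairs of BD HVT/LPEEP rats cost 72 named genes their call in at least 1 pair, among them Icam1, Icam2, Bcl2, Sox17 and Nr1d1. Normalizing again changed none, and it could not, because all 24 arrays already held the same sorted values. Casp1, which was not called, ranged from -0.026 without BD HVT/LPEEP 11 to 0.235 without BD HVT/LPEEP 37 and was -0.003 for 1 pair. No paired analysis was possible because each rat's number belongs to 1 rat and no number is shared between groups.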
